A study of Homo sapiens with 6 samples.

Results

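DDB2, the DNA damage sensor that carries a CUL4 ubiquitin ligase to ultraviolet lesions, was examined together with the other subunits of that ligase and with the XPC complex that acts after it. The members were taken by name: DDB2, DDB1, CUL4A, CUL4B and RBX1 for the ligase, and XPC, CETN2 and RAD23B for the damage recognition complex. Of these 8 genes, 7 had a probe set whose platform annotation gives a single symbol, and all 7 passed the filter on low values, among 18836 genes tested. RBX1, the RING subunit that recruits the ubiquitin-conjugating enzyme, shares its only probe set with another symbol and is given no value. DDB1, CUL4A, CUL4B, XPC, CETN2, RAD23B and DDB2 each had 1 such probe set, so no choice between probe sets was made.

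The arrays compared OV2008 cells 3 days after transfection with a miR-328-3p mimic (3 arrays) with OV2008 cells transfected with a negative control (NC) microRNA for the same time (3 arrays). The labels call OV2008, a long-used human line, ovarian cancer, although other work has traced it to a carcinoma line of the cervix. Every array was hybridised with DNA made from 100 ng of total RNA, and no untransfected or irradiated cells were analysed here, so all values describe cells that were not labelled as exposed to ultraviolet light. Separate cultures are not stated for the samples, so the p-values rest on sample-to-sample spread that may be technical. In the description field the mimic samples are said to carry the NC microRNA; their titles and source names say mimic, and these set the groups.

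Values are on a scale taken as log2, so a difference of 1 is a doubling of signal. Array medians over all probe sets lay at 4.19 to 4.23 in the mimic group and 4.16 to 4.19 in the control group, and within-group correlations over probe sets ran from 0.9954 to 0.9967. Of 6 epithelial genes, EPCAM, KRT8, KRT18, KRT19 and CDH1 lay between 11.80 and 14.99 in mimic arrays and between 11.13 and 14.76 in control arrays, and KRT7 was at 6.18 in mimic and 6.09 in control arrays. Among the squamous or cervical markers chosen, TP63 and KRT6A had no probe set with a single symbol. Of the 3 others, KRT5 was far above the array medians, at 17.00 in mimic and 17.03 in control arrays. KRT14 (5.45 in mimic and 5.14 in control arrays) and SERPINB3 (5.89 in mimic and 6.02 in control arrays) were only modestly above them. The Müllerian and ovarian carcinoma markers PAX8, WT1, MUC16 and SOX17 of the labelled tumour type lay near the medians, at 4.38, 3.99, 3.56 and 4.07 in mimic arrays and 4.33, 4.02, 3.41 and 4.18 in control arrays. Of 8 leukocyte, fibroblast and endothelial markers, 6 lay between 3.05 and 4.39 in the mimic arrays and between 2.93 and 4.30 in the control arrays. The others were CD68, which also marks lysosomes (9.02 in mimic and 8.04 in control arrays), and CDH5 (4.80 in mimic and 5.48 in control arrays), and their part in the results was not tested.

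In nucleotide excision repair, bulky lesions are found either by a stalled RNA polymerase or by sensors that scan the whole genome. DDB2 is a WD40-repeat protein that binds ultraviolet photoproducts directly. Through DDB1 it is attached to the cullin scaffold CUL4A or CUL4B and to RBX1, and this ligase ubiquitinates DDB2 itself, XPC and histones around the lesion. XPC, held in a complex with RAD23B and the centrin CETN2, then takes over the lesion and recruits TFIIH. DDB2 has been reported as a direct target of miR-328-3p by the study that made these arrays, and the comparison asked which transcripts responded to the mimic.

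The mature microRNA is shown because its seed, bases 2 to 8, in capitals, is the part that pairs with a target. It is encoded at chr16:67202327-67202348 on the minus strand of GRCh38.p14 (RefSeq).
hsa-miR-328-3p: cUGGCCCUcucugcccuuccgu
A DNA site complementary to the seed reads agggcca. Of 2545 mature human microRNAs in the RefSeq table, only hsa-miR-328-3p carried this seed. Transcript sequences of DDB2 were not used here, so no target site is given.

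DDB2 was the member that changed most. Its values were 10.83, 10.73 and 10.81 in mimic arrays 1, 2 and 3, against 12.28, 12.30 and 12.31 in the control arrays. The highest mimic array was 1.45 below the lowest control array, so the groups were well apart. In these bulk samples, fewer cells with the transcript and less of it per cell cannot be told apart. DDB2 averaged 10.79 ± 0.05 in mimic arrays and 12.30 ± 0.01 in control arrays (SD, n = 3 each). The log2 difference was -1.51 (SE 0.0422, 95% interval -1.61 to -1.41, limma adjusted p = 4.56e-05), which leaves 35.2% of the control signal. Of 18836 genes tested, 12 (0.0637%) had a lower log2 difference. Counting rises and falls together, 0.149% of genes had a log2 difference at least as large in size as that of DDB2. Across all genes, 18.0% passed the adjusted p threshold of 0.05, 7.21% rising and 10.8% falling, and the groups did not overlap for 41.6%. These shares depend on the arrays and the centring. The 1358 genes that rose and 2034 that fell became 833 and 1272 without mimic array 2, 905 and 1288 without control array 3, and 1038 and 2374 with each array centred on its median.

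**Figure D1:**
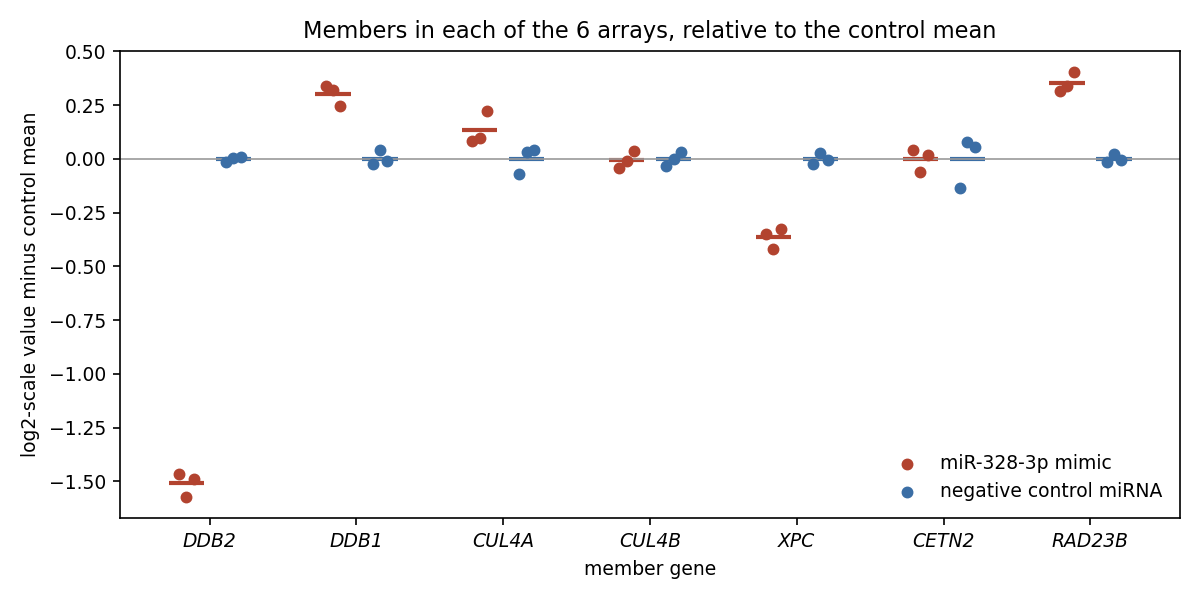
Each point is 1 array, plotted as its log2-scale value minus the mean of the 3 control arrays of that gene; mimic arrays are on the left of each pair, control arrays on the right, and bars are group means. The mean of the mimic arrays stands at -1.51 for DDB2, -0.36 for XPC, 0.30 for DDB1 and 0.35 for RAD23B, and the groups of CUL4B and CETN2 overlap.

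DDB1, the adaptor on which DDB2 sits, did not follow it. DDB1 stood at 10.66, 10.64 and 10.57 in the mimic arrays, against 10.30, 10.36 and 10.31 in the control arrays, and it rose by 0.30 (SE 0.0449, 95% interval 0.19 to 0.41, adjusted p = 0.00761). All 3 mimic arrays lay above all control arrays, the nearest pair being 0.21 apart. That is a 1.23-fold higher signal, and 7.50% of all genes tested had a higher log2 difference.

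The cullin scaffolds CUL4A and CUL4B are paralogs that each bind DDB1 and RBX1. CUL4A stood at 8.41, 8.43 and 8.55 in the mimic arrays, against 8.26, 8.36 and 8.37 in the control arrays. The groups did not overlap but were only 0.04 apart, and the difference of 0.13 (SE 0.0607, 95% interval -0.01 to 0.28) did not pass (adjusted p = 0.248). CUL4B stood at 11.49, 11.52 and 11.56 in the mimic arrays, against 11.49, 11.53 and 11.56 in the control arrays. Its groups overlapped over almost their whole range, and its difference was -0.004 (95% interval -0.10 to 0.09, adjusted p = 0.97). A change in CUL4B of the size seen in DDB1 lies outside that interval, whereas for CUL4A a rise of up to 0.28 lies within it.

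XPC, the lesion-binding subunit of the second complex, fell. Its values were 6.39, 6.33 and 6.42 in the mimic arrays, against 6.72, 6.77 and 6.74 in the control arrays, and no mimic array reached the lowest control array. The log2 difference was -0.36 (SE 0.0559, 95% interval -0.50 to -0.23, adjusted p = 0.00846), which leaves 77.7% of the control signal. Of all genes tested, 6.82% had a lower log2 difference than XPC.

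RAD23B, the ubiquitin-receptor protein that stabilises XPC, went the other way from its partner. Its values were 11.75, 11.77 and 11.84 in the mimic arrays, against 11.42, 11.46 and 11.43 in the control arrays, and the groups were 0.29 apart. It rose by 0.35 (SE 0.0406, 95% interval 0.26 to 0.45, adjusted p = 0.00281), or 1.28-fold. CETN2, the calcium-binding subunit, stood at 9.62, 9.52 and 9.60 in the mimic arrays, against 9.44, 9.66 and 9.64 in the control arrays. Its mimic arrays fell inside the range of the control arrays, which was set by a low control array 1, and its difference was below 0.001 in size (95% interval -0.17 to 0.17, adjusted p = 0.999).

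Of the 7 members analysed, 2 rose, 2 fell and 3 did not pass. The groups did not overlap for 5 of the 7, against 41.6% of all genes tested. Called members make up 57.1% of the 7, against the 18.0% of all genes given above, which itself moves with the arrays used. The set is small, and the fall of DDB2 in it was already known. The counts behind the 18.0% also depend on the filter: with the lowest 50% left out, 1548 genes rose and 2316 fell. Signal level was not matched between the members and all genes. Among the 6 partners the median log2 difference was 0.07, against 0.01 over all genes tested. Each of the 4 calls was kept under all 13 alternative settings tried, with adjusted p up to 0.00237 for DDB2, 0.0416 for DDB1, 0.0415 for XPC and 0.0194 for RAD23B.

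**Figure D2:**
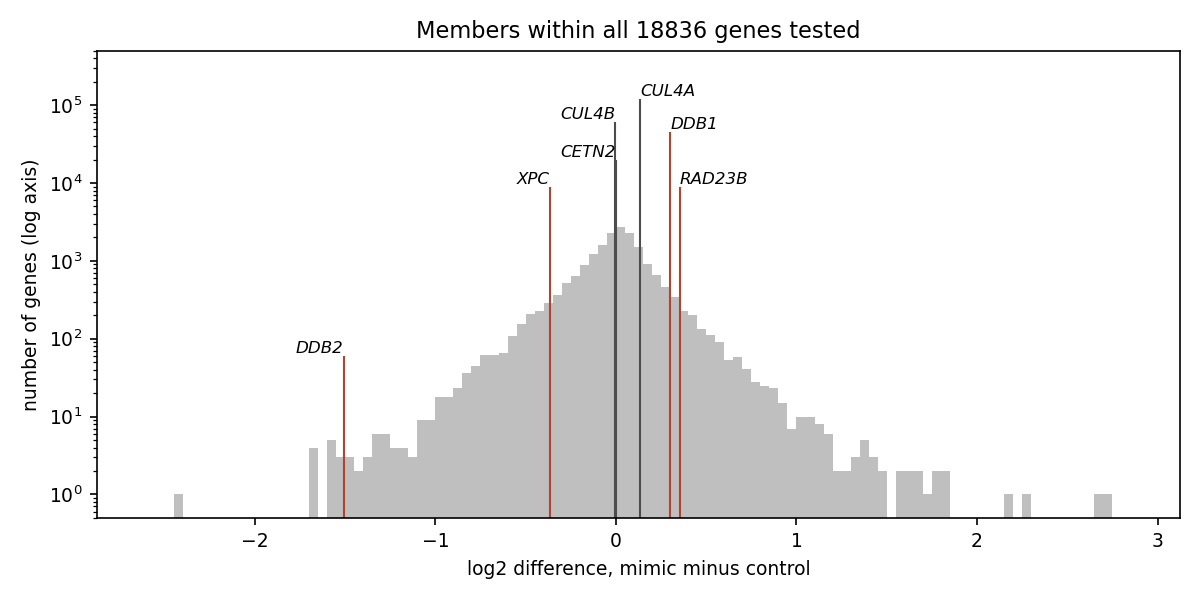
Grey bars count the 18836 genes tested by log2 difference, mimic minus control (count on a log axis); vertical lines mark members, red where the adjusted p is below 0.05, and their heights carry no value. DDB2 at -1.51 lies in the far lower tail, while the other members lie between -0.36 and 0.35.

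Whether DDB2 changed differently from its partners was tested on the difference of their signals within each array, so that array-wide shifts cancel. The log2 signal of DDB2 minus that of DDB1 was 0.17, 0.08 and 0.24 in the mimic arrays, against 1.99, 1.94 and 2.00 in the control arrays. Such a difference depends on the probes and is no ratio of transcripts or proteins, and how evenly the probe sets respond to a change was not tested. The change of DDB2 minus that of DDB1 was -1.81 (95% interval -1.93 to -1.68), a 3.50-fold difference on the scale of these probe signals. Against RAD23B the difference of changes was -1.86 (-1.98 to -1.74), and against CUL4A it was -1.64 (-1.78 to -1.50). CETN2 gave -1.51 (-1.65 to -1.37) and CUL4B -1.50 (-1.62 to -1.39). XPC, the partner that fell as well, gave -1.14 (-1.27 to -1.01). For all 6 partners the limma adjusted p lay between 5.58e-09 and 2.25e-08. All of these differences share the DDB2 values, so their p-values are not independent and are not comparable with those of single genes. The same fit called 99.9% of all other genes different from DDB2, so a difference from DDB2 is not particular to its partners.

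**Figure D3:**
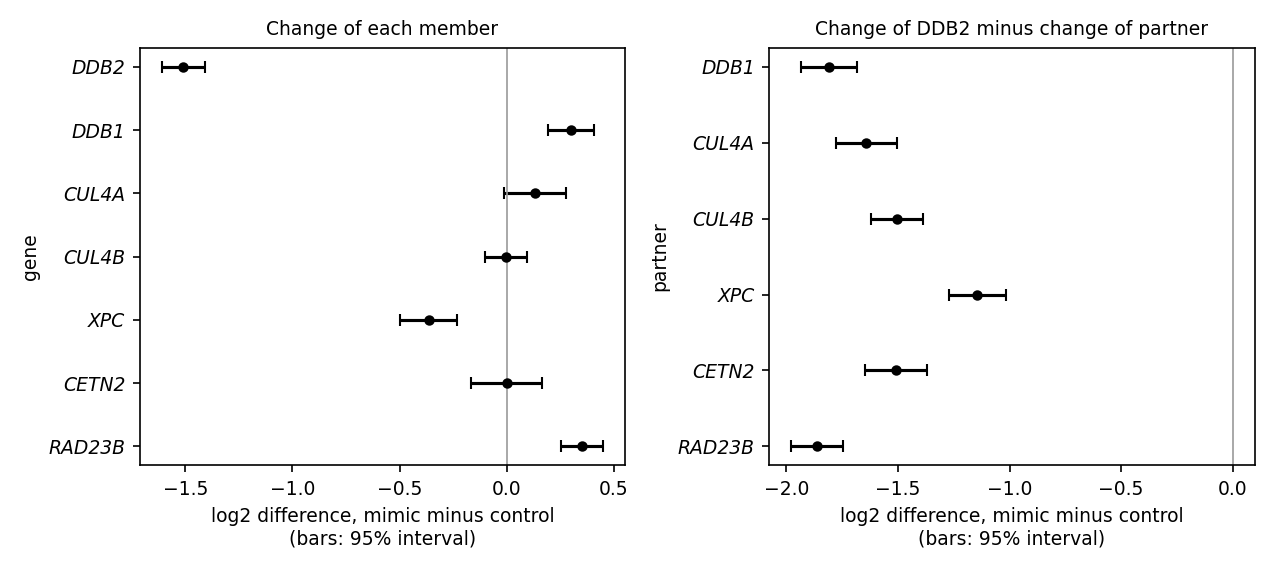
Points are log2 differences, mimic minus control, and bars are 95% intervals from limma; the left panel gives each member and the right panel the change of DDB2 minus the change of each partner. In the left panel the intervals of CUL4A, CUL4B and CETN2 include 0, and in the right panel all 6 intervals lie below -1.0.

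By the root mean square difference of profiles over the 6 arrays, each gene centred on its own mean, the genes most like DDB2 were STT3A (0.0306), GJA1 (0.0346), PTPRZ1 (0.0444), MME (0.0638) and PGM2 (0.0704). STT3A is a catalytic subunit of the oligosaccharyltransferase, GJA1 a gap junction protein, PTPRZ1 a receptor phosphatase, MME a membrane endopeptidase and PGM2 a phosphopentomutase. Their log2 differences ran from -1.57 to -1.40, and none belongs to the ligase or to excision repair. The closest, STT3A, stood at 14.43, 14.40 and 14.44 in the mimic arrays, against 15.91, 15.99 and 15.93 in the control arrays.

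Transcription of DDB2 is known in human cells to be raised by p53 and to respond to E2F1, and the window from 250 bases before to 50 bases after a RefSeq start site of DDB2 (GRCh38.p14, chr11:47214724-47215023, plus strand) is shown for the sites that bear those names. Capitals mark a p53 response element, which lies 6 to 26 bases into the transcript with a spacer of 1 base, and GGCGGGAA, an E2F motif, which follows it directly at bases 27 to 34. The reverse complement of the E2F motif stands at bases -115 to -108.
DDB2 promoter: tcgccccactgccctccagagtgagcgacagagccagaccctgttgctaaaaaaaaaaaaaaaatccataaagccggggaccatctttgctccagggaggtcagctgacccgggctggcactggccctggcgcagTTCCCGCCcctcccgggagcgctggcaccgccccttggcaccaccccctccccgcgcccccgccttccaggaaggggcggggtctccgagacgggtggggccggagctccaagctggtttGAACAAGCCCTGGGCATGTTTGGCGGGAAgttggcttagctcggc
Of 35116 promoter windows of this length, 10 (0.0285%) held a p53 response element, searched as a pair of consensus repeats with 0 to 13 bases between them, and 1108 (3.16%) held GGCGGGAA on either strand. Among the members, the p53 element was found in that DDB2 window alone and not in the other RefSeq window of DDB2, and the E2F motif also in the XPC window and in 1 of the 4 CUL4A windows. Of 718 tested genes with the E2F motif in a window, 10.4% rose and 14.8% fell, against 7.21% and 10.8% of all genes. All genes were not limited to those with a window, and signal level was not matched. A link between the motif and these shares was not tested. These matches are a description of letters in the windows.

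Among factors reported to control DDB2 transcription, E2F1 stood at 7.22, 7.25 and 7.38 in the mimic arrays, against 6.98, 7.09 and 7.09 in the control arrays, a difference of 0.23 that did not pass (adjusted p = 0.0792). SP1, a GC-box factor, gave -0.12 and did not pass (adjusted p = 0.128). BRCA1, a repair protein also reported to act on this promoter, fell by 0.54 (adjusted p = 0.000913). The median of these 3 genes was -0.12, and 33.3% of them passed, against 18.0% of all genes tested. Of 4 genes reported to be controlled by DDB2 protein, 1 rose and 3 did not pass, with a median of 0.20. VEGFA, the angiogenic factor, rose by 1.09 (adjusted p = 0.000123). NFKBIA, the NF-kappaB inhibitor, gave 0.14 (adjusted p = 0.106), and the transcription factors SNAI1 and ZEB1 gave 0.26 and 0.05 (adjusted p = 0.347 and 0.743). Without control array 1, SNAI1 passed at an adjusted p of 0.0429. Both SNAI1 and ZEB1 lay below the array medians, at 3.61 and 3.74 in mimic arrays and 3.35 and 3.69 in control arrays. Their differences, and the median of 0.20 that includes them, therefore rest in part on dim signal.

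Other receptors use the same DDB1 and CUL4 core in place of DDB2. Of 27 such receptors and DDB1-bound proteins tested, 2 rose, 2 fell and 23 did not pass, with a median of -0.005. That is 14.8% called, below the 18.0% of all genes tested. BRWD1, a bromodomain and WD40-repeat protein, rose by 0.50 (adjusted p = 0.00088). DTL, the receptor that destroys replication factors on chromatin-bound PCNA, fell by 0.26, standing at 13.09, 13.09 and 13.06 in the mimic arrays, against 13.36, 13.35 and 13.31 in the control arrays (adjusted p = 0.00519). DCAF17 fell by 0.31 (adjusted p = 0.0108), but its adjusted p was 0.0513 without control array 3. DCAF12 passed at 0.26 (adjusted p = 0.0272) but not with control array 1 (0.0747) or 3 (0.102) left out, nor with mimic array 1 (0.0823), 2 (0.0605) or 3 (0.0775) left out. ERCC8, the receptor that serves transcription-coupled repair in the place DDB2 takes in global repair, gave -0.10 and did not pass (adjusted p = 0.261).

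The 3 substrates of the DTL form of the ligase that were tested all had higher values in the mimic arrays, with a median of 0.62. The threshold was passed by 66.7% of them, against 18.0% of all genes tested. CDKN1A, the cell cycle inhibitor p21, rose by 0.72 (95% interval 0.50 to 0.94, adjusted p = 0.00424), and the histone methyltransferase KMT5A rose by 0.62 (adjusted p = 0.0017). The licensing factor CDT1 gave 0.32 and did not pass (adjusted p = 0.102). These are transcript levels of proteins that the ligase controls by degradation.

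Cullin ligases are switched on by NEDD8 conjugation, which the COP9 signalosome reverses, and CAND1 exchanges their substrate receptors. Of the 22 such genes tested, 2 rose, 1 fell and 19 missed the threshold, with a median of -0.01. The called share of 13.6% was below the 18.0% of all genes tested. COPS3, a signalosome subunit, stood at 11.26, 11.21 and 11.17 in the mimic arrays, against 12.16, 12.11 and 12.00 in the control arrays. All mimic arrays were lower, and COPS3 fell by 0.88 (95% interval -1.01 to -0.75, adjusted p = 0.000329), the lowest value of the list. Another subunit, COPS2, rose by 0.35 (adjusted p = 0.00189). GPS1, the first signalosome subunit, passed at 0.32 (adjusted p = 0.0201) but not without control arrays 1 (0.0601) and 3 (0.0805) or mimic arrays 1 (0.0735) and 3 (0.0622). COPS5, the catalytic subunit, gave -0.07 and CAND1 0.01, neither of which passed (adjusted p = 0.5 and 0.892).

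Among the 7 other cullin and RING genes, 2 rose, 1 fell and 4 missed the threshold, and the median was 0.06. The called share was 42.9%, against 18.0% of all genes tested. CUL3, the scaffold of the BTB ligases, rose by 0.40 (adjusted p = 0.0055). CUL2, the scaffold used by VHL, passed at 0.23 (adjusted p = 0.0154) but not without control array 3 (0.0571), mimic array 1 (0.0567) or mimic array 2 (0.0521). CUL1, the scaffold of the SCF ligases, passed at -0.18 (adjusted p = 0.0445) and was kept only without mimic array 3. With control array 1, 2 or 3 left out, the adjusted p of CUL1 was 0.0714, 0.112 or 0.152. With mimic array 1 or 2 left out, it was 0.129 or 0.156.

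Of 14 genes grouped around DDB2 and XPC at the lesion, 6 rose, 4 fell and 4 did not pass, with a median of 0.10. The grouping is broad: CETN3 is in it as a relative of CETN2, and HMGN1 and USP45 are not claimed to act directly with DDB2 or XPC. Called genes made up 71.4% of this list, against 18.0% of all genes tested. The segregase that pulls ubiquitinated DDB2 and XPC from chromatin was higher in all 3 of its core genes. NPLOC4 stood at 10.62, 10.61 and 10.64 in the mimic arrays, against 9.41, 9.35 and 9.32 in the control arrays, a rise of 1.26 (2.39-fold, adjusted p = 7.03e-05). Its cofactor partner UFD1 rose by 0.94 (1.92-fold, adjusted p = 0.000142), at 9.72, 9.78 and 9.74 in the mimic arrays, against 8.84, 8.77 and 8.81 in the control arrays. VCP, the p97 ATPase itself, rose by 0.88 (1.84-fold, adjusted p = 0.000111). UBXN7, the adaptor that links p97 to cullin ligases, gave 0.16 and did not pass (adjusted p = 0.0855).

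The nucleosome-binding protein HMGN1 fell by 0.37 (adjusted p = 0.00292) and the deubiquitinase USP45 by 0.32 (adjusted p = 0.00957). The chromatin remodeller CHD1L passed at -0.31 (adjusted p = 0.0153) but not without control array 3 (0.0516), mimic array 1 (0.0526) or mimic array 2 (0.0651). CETN3, a relative of CETN2, passed at -0.29 (adjusted p = 0.0288) but not without control arrays 1 (0.0798) and 3 (0.105) or mimic arrays 1 (0.0959) and 2 (0.107). HMGN1 and USP45 kept their calls whichever array was left out. USP7, a deubiquitinase that stabilises XPC, rose by 0.47 (adjusted p = 0.00608), and USP24, reported to act on DDB2, gave 0.05 and did not pass (adjusted p = 0.63).

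Of 22 genes grouped as later steps of nucleotide excision repair, 4 rose, 6 fell and 12 missed the threshold. That is 45.5% called, against 18.0% of all genes tested, and the median was -0.07. The group also holds UVSSA, ELOF1 and XAB2, which serve the branch that starts at a stalled RNA polymerase. Subunits of TFIIH, the helicase complex that XPC recruits, went in different directions. The smallest subunit, GTF2H5, stood at 5.69, 5.49 and 5.54 in the mimic arrays, against 6.18, 6.36 and 6.50 in the control arrays, and fell by 0.77 (adjusted p = 0.00485). GTF2H3 fell by 0.64 (adjusted p = 0.000297) and the translocase ERCC3 by 0.55 (adjusted p = 0.000963). The kinase subunit CDK7 passed at -0.32 (adjusted p = 0.0195) but not without mimic array 1 (0.0586), 2 (0.064) or 3 (0.0629). GTF2H1 rose by 0.24 (adjusted p = 0.00961). The helicase ERCC2 gave 0.04, GTF2H4 -0.06, CCNH 0.11 and MNAT1 -0.03, and none of these passed (adjusted p = 0.733, 0.566, 0.134 and 0.846). ERCC1, of the incision nuclease on the 5′ side, passed at 0.35 (adjusted p = 0.0109) but not without control array 3 (0.0501) or mimic array 2 (0.0503). XAB2, an XPA-binding protein, passed at 0.25 (adjusted p = 0.0457) but not with any array left out. With control array 1, 2 or 3 left out, the adjusted p of XAB2 was 0.107, 0.124 or 0.0787, and with mimic array 1, 2 or 3 left out it was 0.141, 0.0822 or 0.114. Counts in this list moved as well: 1 gene rose without control array 3, 2 rose and 3 fell without mimic array 1, and 1 rose and 3 fell without mimic array 2.

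Over all of these related lists, 34 of 102 genes passed, against 18.0% of all genes tested. Of the 34, 20 did so in each of the 6 fits with an array left out. The share of all called genes that did so is not given here. Signal level was not matched between the list genes and all genes, either here or for the shares of the single lists above. No list was tested as a whole.

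**Figure D4:**
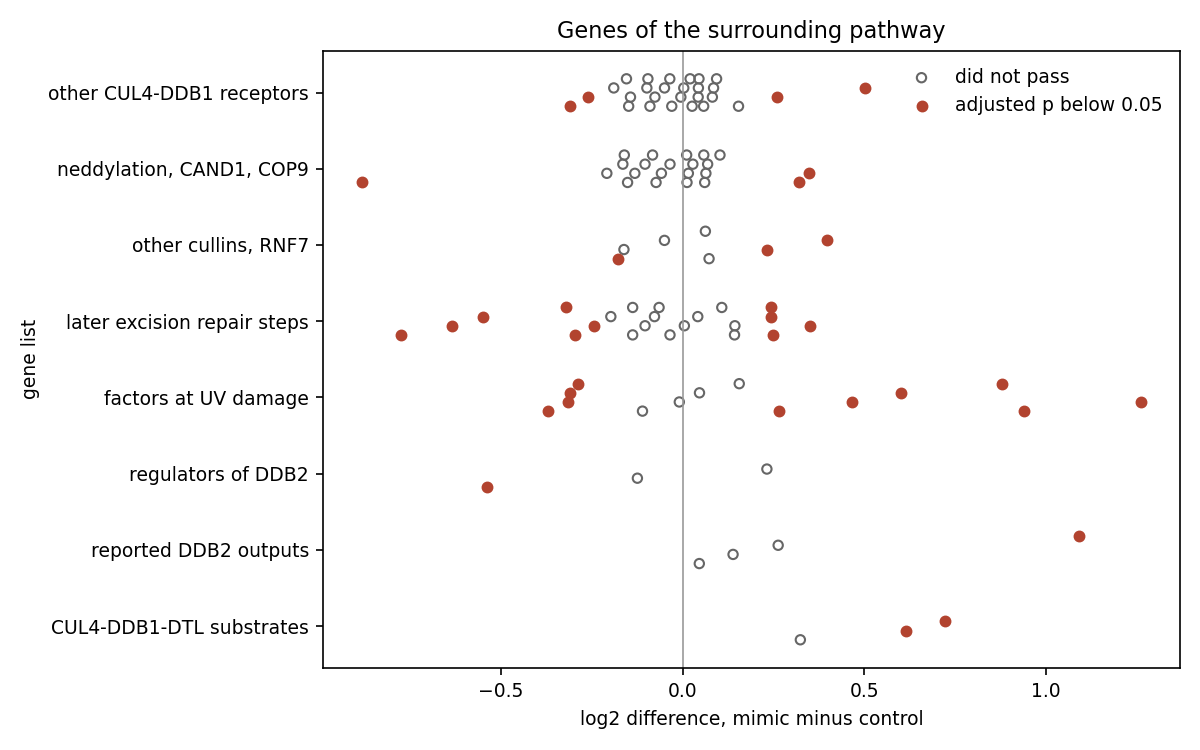
Each point is 1 gene, at its log2 difference, mimic minus control, in rows by gene list; filled points passed an adjusted p of 0.05 and open points did not. The highest point is NPLOC4 at 1.26 and the lowest is COPS3 at -0.88.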

How the data were processed

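RNA of 6 samples was measured on Affymetrix arrays. The authors deposited 1 value per probe set and array, taken here as log2; the base is inferred from a range of 1.62 to 19.9. Some values exceed 16, the log2 limit of a 16-bit scanner, so a fold describes this scale. Per the submitters' processing notes, MAS5 is a tool named, with neither role nor version stated. Summarization and build: not given in the sources used here. Groups come from sample titles.

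Of 67528 transcript clusters, the 25% with the lowest mean were left out, and 50646 were tested. Symbols came from the platform annotation. A gene with several probe sets was represented by that of highest mean. The deposited normalization was kept, with no pseudocount. limma 3.58.1 in R 4.3.3 was fitted with a mean-variance trend. Its tests are two-sided, and p-values were Benjamini-Hochberg adjusted over all tested clusters; every adjusted p is from limma. Differences from DDB2 were fitted for 18835 genes with adjustment over them, on values that all share the DDB2 signal. An exact permutation test of 3 arrays against 3 cannot go below 0.1 and was not used. Alternatives were array centring, quantile normalization, other filters, no trend, robust estimation, a replicate block and each array left out. Precision is limited by the number of arrays.

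The members and lists were chosen with earlier results of these data known. All members are named. From each list the text names up to 3 genes with the largest rise and 3 with the largest fall that passed, and closest relatives or best-known regulators whatever their values. It also names 5 genes most like DDB2. Other genes, among them COPS5, UBXN7, USP7, USP24, ERCC2, CDK7, GTF2H4, CCNH, MNAT1, SP1, E2F1, NFKBIA, SNAI1, ZEB1 and CDT1, were chosen after their values were seen. Genes without a single-symbol probe set were not analysed here. Sequences are from RefSeq, GRCh38.p14. Python 3.11.15 and matplotlib 3.10.9 made the figures.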

Additional observations from a re-analysis of the deposited data

How the results depend on the processing

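All 169 alternative values of the member differences and of the DDB2-minus-partner differences kept their side of the threshold, and those that passed kept their direction. The DDB2 difference ranged from -1.55 to -1.48, and that of XPC from -0.41 to -0.34. Centring each array on its median moved differences by -0.04. With an array left out, between 833 and 1151 of all genes rose and between 1272 and 1559 fell; without control array 3 there were 905 and 1288, and without mimic array 2 there were 833 and 1272. Whether the sample numbers pair the samples cannot be told from the values, and the main fit left them unpaired. Deviations of same-numbered arrays correlated at 0.142, -0.0497 and 0.182, and those of differently numbered arrays at -0.226 to 0.115. Arrays numbered 1 and 3 correlated best with their own number, and those numbered 2 did not. With the replicate block, DDB2 stayed at -1.51 (adjusted p = 0.00237), 2 members rose and 2 fell, and 1038 of all genes rose and 1507 fell. Counts in the related lists, which are small, moved by over 1.5 times in 27 of 96 such counts with an array left out, in 2 of 16 with centring and in 4 of 16 with the replicate block. The cause was not tested, except that leaving out an array leaves fewer samples. Dim probe sets limit what can be seen as a fall, although no member lay near the array median. Averaging the probe sets of a gene gave no separate value, since each member had 1.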
